A study of Mus musculus with 12 samples.

Results

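Hyaluronan is a long, unbranched sugar chain of the extracellular matrix that is assembled at the plasma membrane by the hyaluronan synthases HAS1, HAS2 and HAS3 from UDP-glucuronic acid and UDP-*N*-acetylglucosamine. It is cut by hyaluronidases such as HYAL1 and HYAL2, and by CEMIP, and it is held in the matrix by binding partners such as versican, TSG-6 and PTX3 and at the cell surface by its receptor CD44. Activated fibroblasts are a main source of hyaluronan in the stroma of pancreatic tumours, where it is abundant. The 10 genes described here are the 3 synthases *Has1*, *Has2* and *Has3*, the enzymes of breakdown *Hyal1*, *Hyal2* and *Cemip*, the matrix partners *Vcan* (versican), *Tnfaip6* (TSG-6) and *Ptx3*, and the receptor *Cd44*. They were taken by name from the 39179 genes of the deposited count table. Of the 10, 9 were found by symbol and *Cemip* by its Ensembl identifier, since the table gives it under the older symbol 9930013L23Rik.

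The RNA came from mouse pancreatic stellate cells (PSCs), the fibroblast-like cells of the pancreas, labelled as of strain C57BL/6. The PSCs were 1 immortalised clone expressing mCherry. They were cultured for 72 h in a minimal medium alone (mono-PSCs), together with EGFP-expressing pancreatic cancer cells (PCCs) of a mouse line (2W-PSCs), or with these PCCs and TagBFP-expressing macrophages (MØs) of the RAW264.7 line (3W-PSCs). After culture, cells with mCherry but neither EGFP nor TagBFP were sorted, a gate meant to remove PCCs and MØs, and each culture gave 4 libraries, 12 in all. The comparison of 2W-PSCs with mono-PSCs asks what tumour cells change in PSCs. That of 3W-PSCs with 2W-PSCs asks what MØs add, and that of 3W-PSCs with mono-PSCs what both do together. By the study's methods the total cell number was the same in each culture, so added cells took the place of others. The part of this change in cell numbers was not tested, and no library came from PSCs cultured with MØs only. Because all PSCs are 1 clone, the spread between libraries is that between cultures of this clone.

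Total counts ranged from 4561817 to 8093368 per library. A count of 3, taken as the limit of detection, corresponds to 0.347 to 0.736 CPM (counts scaled to a common library size), depending on the library. One library, replicate 2 of the 2W-PSCs, stood apart. Its rank correlations with the other 2W-PSC libraries reached at most 0.919, whereas the lowest within the other cultures was 0.948, and the members' results that rest on it are given with and without it. For the markers of cell types, any count in a library of the culture was taken as detection, a looser rule than the limit of 3 counts. All 11 fibroblast markers examined were detected in each culture, with summed levels between 4913 and 9233 CPM. Of 12 macrophage markers, 7 were detected in mono-PSCs, 8 in 2W-PSCs and 11 in 3W-PSCs, and their summed level was 1.93 to 8.03 CPM, 3.66 to 11.5 CPM and 16.1 to 68.2 CPM, respectively. Only 1, 2 and 8 of them had a mean level above 1 CPM in these cultures. *Adgre1*, which encodes the macrophage marker F4/80, was at 0 in all 12 libraries, and *Ptprc*, *Tyrobp* and *Laptm5* were at 0 in mono-PSCs and 2W-PSCs. Of 12 epithelial markers, 8 were detected in mono-PSCs, 8 in 2W-PSCs and 11 in 3W-PSCs, with sums of 1.33 to 3.34 CPM, 74.99 to 146 CPM and 52.8 to 90.4 CPM, and *Cldn4* was at 0 in every library. The number with a mean level above 1 CPM was 0 in mono-PSCs, 5 in 2W-PSCs and 6 in 3W-PSCs.

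Hyaluronan synthase RNA in PSCs was almost wholly *Has2*, and it was lowest in mono-PSCs, higher in 2W-PSCs and highest in 3W-PSCs. *Has2* lies on the minus strand of chromosome 15 (GRCm38 chr15:56665627-56694539) and encodes the synthase that is essential in the mouse embryo. The 4 mono-PSC libraries held 14, 4, 6 and 9 *Has2* counts, or 2.46, 0.783, 1.07 and 1.09 CPM. The 4 2W-PSC libraries held 77, 56, 54 and 34 counts, or 10.8, 13.7, 8.60 and 5.46 CPM. The 4 3W-PSC libraries held 230, 274, 210 and 139 counts, or 30.5, 31.7, 26.7 and 18.1 CPM. No library of any culture overlapped with a library of another, since the lowest 3W-PSC library lay above the highest 2W-PSC library and the lowest 2W-PSC library above the highest mono-PSC library. In bulk RNA a lower level can mean fewer cells that express a gene or less RNA in each cell, and these cannot be told apart.

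Relative to mono-PSCs, *Has2* was 7.14-fold higher in 2W-PSCs (log2 fold change 2.84, SE 0.49, 95% interval 1.78 to 3.89, edgeR adjusted p = 0.0121) and 19.6-fold higher in 3W-PSCs (log2 fold change 4.29, SE 0.34, 95% interval 3.58 to 5.01, adjusted p = 6.03e-08). Relative to 2W-PSCs it was 2.79-fold higher in 3W-PSCs (95% interval of the fold 1.77 to 4.41, adjusted p = 0.0108). In both comparisons with mono-PSCs, *Has2* passed the filter on low counts only through the cocultures, so it could be called only higher there. The rise from mono-PSCs to 2W-PSCs depended on single libraries. The adjusted p became 0.0578 without replicate 1 of the 2W-PSCs, 0.0575 without replicate 3 of the mono-PSCs and 0.0603 without replicate 4 of the mono-PSCs. Without the library that stood apart the rise was still called (log2 fold change 2.61, adjusted p = 0.00892). The rise from 2W-PSCs to 3W-PSCs kept an adjusted p of at most 0.0460 in the 15 alternative settings tried, and without the library that stood apart its log2 fold change was 1.69 (adjusted p = 0.000583). The macrophage markers were highest in the 3W-PSCs and the epithelial markers in both cocultures. The part of RNA from the other cells in the *Has2* levels was not tested.

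**Figure D1:**
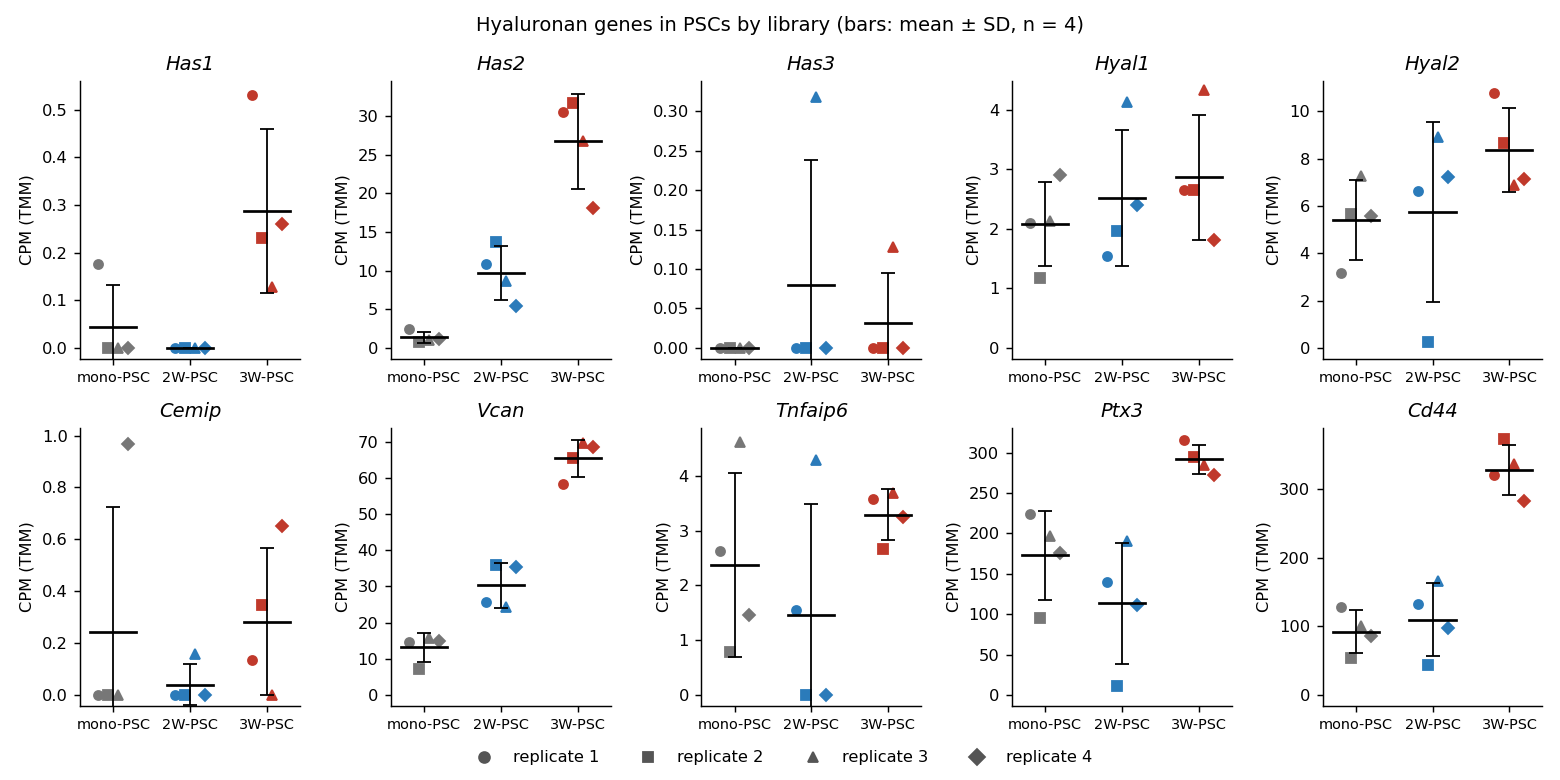
Levels of the 10 hyaluronan genes in CPM scaled by TMM (vertical axes, 1 scale per gene) in the 12 libraries, by culture. Symbols mark the replicate number, horizontal lines the mean and bars the SD over 4 libraries (cut at the lower edge of the panel). The libraries of *Has2* and *Vcan* do not overlap between any of the cultures (the difference of *Vcan* between 2W-PSCs and mono-PSCs was not called), *Cd44* and *Ptx3* lie higher in 3W-PSCs than in both other cultures, and *Has1*, *Has3* and *Cemip* stay under 1 CPM.

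The other synthases were at the edge of detection. *Has1* (chr17:17843323-17855205, minus strand) had 1, 0, 0 and 0 counts in mono-PSCs, 0 counts in each 2W-PSC library, and 4, 2, 1 and 2 counts in 3W-PSCs. *Has3* (chr8:106870242-106884566, plus strand) had 0 counts in every mono-PSC library, 2 counts in a single 2W-PSC library and 1 count in a single 3W-PSC library. A part of the last exons of *Has3*, 352 bases, overlaps *Chtf8* on the opposite strand, and 21.8% of the 75-base windows at its transcript ends also occur in *Chtf8*. Both genes fell below the filter on low counts in all comparisons and were not tested, and no fold is given because at most 1 library held more than 3 counts. The kit used, QuantSeq, reads roughly 1 fragment per transcript from its 3′ end, so counts of genes can be set side by side without a correction for length. Summed over the 12 libraries, *Has2* held 1107 of 1120 synthase counts (98.8%, exact binomial 95% interval 98.0% to 99.4%, covering counting error only), *Has1* 10 and *Has3* 3. Its share was 33 of 34 counts in mono-PSCs, 221 of 223 in 2W-PSCs and 853 of 863 in 3W-PSCs, so the same synthase predominated at every level.

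The antisense gene *Has2os* overlaps 182 exonic bases of *Has2* on the opposite strand, none of them in the last 500 bases of *Has2* where 3′ reads fall. Its level was 0.717 ± 0.427 CPM in mono-PSCs, 3.46 ± 1.38 CPM in 2W-PSCs, against 2.94 ± 1.24 CPM in 3W-PSCs (SD, n = 4 each). It was higher in 3W-PSCs than mono-PSCs (log2 fold change 1.99, SE 0.58, adjusted p = 0.0176). With 1 to 7 counts in the mono-PSC libraries, it passed the filter on low counts there only through the 3W-PSCs. It could thus be called only higher. *Has2os* was filtered out of the comparison of 2W-PSCs with mono-PSCs. Between 3W-PSCs and 2W-PSCs, where *Has2* rose, the log2 fold change of *Has2os* was -0.22 (adjusted p = 0.812). Whether the counting used strand is not given in the sources used here.

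The enzymes of breakdown among the members, *Hyal1*, *Hyal2* and *Cemip*, were not called in any comparison. *Hyal2* (chr9:107567945-107572779, plus strand) encodes a hyaluronidase anchored at the cell surface that cuts long chains to intermediate ones. Its levels were 3.16, 5.68, 7.28 and 5.57 CPM in mono-PSCs, 6.62, 0.245, 8.92 and 7.22 CPM in 2W-PSCs, against 10.8, 8.67, 6.87 and 7.14 CPM in 3W-PSCs. The cultures overlapped, and the value of 0.245 CPM was a single count in the 2W-PSC library that stood apart. Between 3W-PSCs and mono-PSCs the log2 fold change was 0.62 with a 95% interval from -0.06 to 1.29 (adjusted p = 0.167), and between 3W-PSCs and 2W-PSCs it was 0.51 with an interval from -0.72 to 1.75 (adjusted p = 0.607). Between 2W-PSCs and mono-PSCs it was 0.12, with an interval from -1.23 to 1.46 (adjusted p = 0.999). Without the library that stood apart the last 2 values were 0.14 (adjusted p = 0.784) and 0.48 (adjusted p = 0.828). All 3 intervals include a 2-fold rise, which is therefore not shown to be absent.

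*Hyal1* (chr9:107576927-107581710, plus strand), the lysosomal hyaluronidase, had 2.11, 1.18, 2.13 and 2.90 CPM in mono-PSCs, 1.55, 1.96, 4.14 and 2.41 CPM in 2W-PSCs, against 2.66, 2.66, 4.33 and 1.82 CPM in 3W-PSCs. The 3 cultures overlapped almost fully. The log2 fold change was 0.43 for 3W-PSCs against mono-PSCs (95% interval -0.55 to 1.41, adjusted p = 0.527), 0.19 for 3W-PSCs against 2W-PSCs (-0.83 to 1.20, adjusted p = 0.837) and 0.28 for 2W-PSCs against mono-PSCs (-0.87 to 1.43, adjusted p = 0.999). *Hyal1* shares 1920 exonic bases with *Naa80* and 159 with *Hyal3* on the same strand, and 54.4% of the windows at its transcript ends also occur in these genes, so its counts are uncertain. *Cemip* (chr7:83932857-84086502, minus strand), which encodes a hyaluronan-binding protein needed for hyaluronan breakdown by skin fibroblasts, had 18 counts in all. These were 8 counts in 1 mono-PSC library, 1 count in 1 2W-PSC library, and 1, 3, 0 and 5 counts in 3W-PSCs, and the gene was not tested. Of the 771 counts of *Hyal1*, *Hyal2* and *Cemip* over the 12 libraries, *Hyal2* held 71.1% (exact 95% interval 67.7% to 74.3%), *Hyal1* 26.6% and *Cemip* 2.33%. This total leaves out *Cemip2*, a relative of *Cemip* that is not among the members. *Cemip2* held 1407 counts in mono-PSCs, 1616 in 2W-PSCs and 3203 in 3W-PSCs. By library the share of *Hyal2* ran from 11.1%, 1 of 9 counts in the library that stood apart, to 82.9%, and from 59.0% upwards in the other 11, and it rests on the uncertain counts of *Hyal1*.

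The synthases and the enzymes of breakdown were also set against each other. The summed level of *Hyal1*, *Hyal2* and *Cemip* was 5.27 to 9.44 CPM in mono-PSCs and 9.61 to 13.5 CPM in 3W-PSCs, while that of the 3 synthases was 0.783 to 2.63 CPM and 18.3 to 31.9 CPM, so both sums were higher in the 3W-PSCs and that of the synthases by more. The summed level of the 3 synthases divided by that of *Hyal1*, *Hyal2* and *Cemip* was 0.500, 0.114, 0.113 and 0.115 in the 4 mono-PSC libraries. It was 1.33, 6.22, 0.675 and 0.567 in 2W-PSCs and 2.29, 2.73, 2.41 and 1.91 in 3W-PSCs. The synthases were thus below the hyaluronidases in every mono-PSC library and above them in every 3W-PSC library, and the 2W-PSC libraries lay on both sides. The ratio of 6.22 belongs to the library that stood apart. There the sum of the 3 enzymes was 2.21 CPM against 8.17 to 13.2 CPM in the other 2W-PSC libraries. Without it the 2W-PSC ratios lay between those of the other cultures. The ratio is a description of RNA and was not tested, and it rests on *Hyal1* counts that other genes may share.

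**Figure D2:**
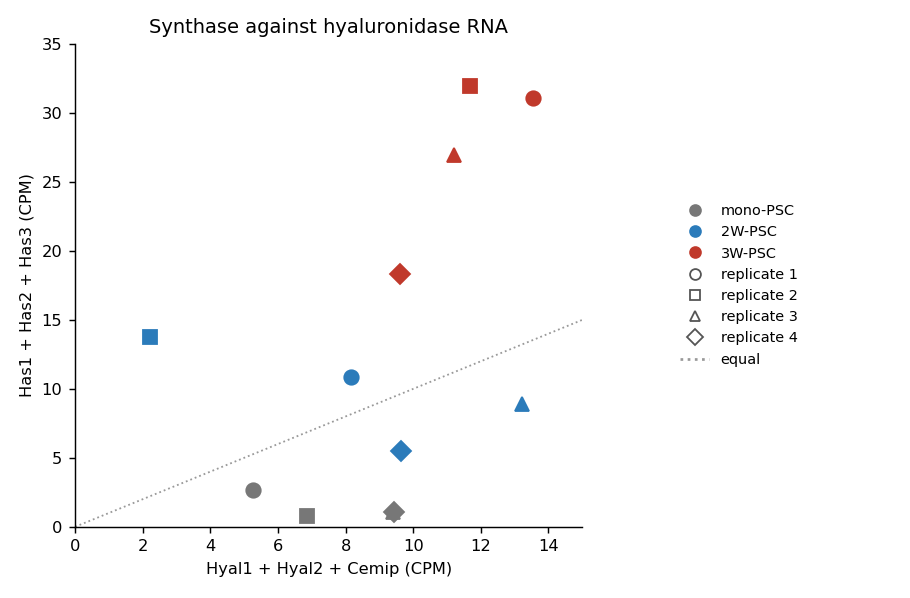
Summed level of *Has1*, *Has2* and *Has3* (vertical axis, CPM) against that of *Hyal1*, *Hyal2* and *Cemip* (horizontal axis, CPM) in each library, with colour for the culture and symbol for the replicate. The dotted line marks equal levels. *Cemip2* is not in the sum, and its level alone was above that of the synthases in all 12 libraries. The mono-PSC libraries lie under the line, the 3W-PSC libraries above it at ratios of 1.91 to 2.73, and the 2W-PSC libraries on both sides.

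The matrix partner *Vcan* was also highest in 3W-PSCs. Versican is a large chondroitin sulfate proteoglycan whose globular head binds hyaluronan and whose tail carries the sugar chains. Its gene lies on the minus strand of chromosome 13 (chr13:89655312-89742509). Its levels were 14.7, 7.05, 15.8 and 14.9 CPM in mono-PSCs, 25.6, 35.8, 24.2 and 35.3 CPM in 2W-PSCs, against 58.2, 65.6, 69.5 and 68.5 CPM in 3W-PSCs. The 3 cultures did not overlap, and within the mono-PSCs replicate 2 lay well under the others. *Vcan* was 4.93-fold higher in 3W-PSCs than mono-PSCs (log2 fold change 2.30, SE 0.22, 95% interval 1.84 to 2.76, adjusted p = 5.69e-07) and 2.17-fold higher than in 2W-PSCs (95% interval of the fold 1.63 to 2.88, adjusted p = 0.00413). The latter call held in all 15 alternative settings tried, with an adjusted p of at most 0.0187, and without the library that stood apart the log2 fold change was 1.21. Between 2W-PSCs and mono-PSCs the level was 2.32-fold apart (log2 fold change 1.21, SE 0.29, 95% interval 0.58 to 1.84), but the adjusted p was 0.0867 and the difference was not called. DESeq2 (adjusted p = 0.0106) and an edgeR fit of all 12 libraries (adjusted p = 0.0115) called it, and the other alternative settings did not. Without the library that stood apart the log2 fold change was 1.10 (adjusted p = 0.0659). The 3′ reads do not tell the splice forms of *Vcan* apart, which differ in their sugar-bearing region.

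*Ptx3* and *Cd44* had another course, with mono-PSCs and 2W-PSCs overlapping and 3W-PSCs above both. PTX3 is a secreted pentraxin that links TSG-6 and hyaluronan-bound heavy chains into a meshwork, and its gene lies on the plus strand of chromosome 3 (chr3:66219910-66225805). *Ptx3* levels were 224, 95.2, 197 and 175 CPM in mono-PSCs, 140.4, 11.04, 189.9 and 111 CPM in 2W-PSCs, against 315, 295, 285 and 272 CPM in 3W-PSCs. All 3W-PSC libraries lay above all others, and the lowest value of all belonged to the 2W-PSC library that stood apart. *Ptx3* was 1.68-fold higher in 3W-PSCs than mono-PSCs (log2 fold change 0.75, SE 0.20, 95% interval 0.32 to 1.17, adjusted p = 0.0114), a call lost in the fit of all 12 libraries (adjusted p = 0.313). It was also lost under the study's added limit of an absolute log2 fold change above 1, which leaves 3 members called in that comparison. Against 2W-PSCs the log2 fold change was 1.37 (SE 0.55, 95% interval 0.16 to 2.57) and was not called (adjusted p = 0.142). Without the library that stood apart it was 0.99, with an adjusted p of 0.00108, so the smaller difference was called and the larger one was not. Between 2W-PSCs and mono-PSCs the log2 fold change of *Ptx3* was -0.59 (95% interval -1.80 to 0.61, adjusted p = 0.999), and -0.23 without that library (adjusted p = 0.915). With the replicate block it was -0.99 (adjusted p = 0.434), and *Ptx3* was lower in 2W-PSCs in all 4 same-numbered pairs.

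CD44 is the main surface receptor for hyaluronan, and its gene lies on the minus strand of chromosome 2 (chr2:102811141-102901665). *Cd44* levels were 129, 53.3, 100.1 and 86.0 CPM in mono-PSCs, 133, 43.2, 166 and 97.1 CPM in 2W-PSCs, against 320.0, 372, 336 and 283 CPM in 3W-PSCs. The lowest 3W-PSC library lay well above the highest library of either other culture, and mono-PSCs and 2W-PSCs overlapped. *Cd44* was 3.54-fold higher in 3W-PSCs than mono-PSCs (log2 fold change 1.82, SE 0.21, 95% interval 1.38 to 2.27, adjusted p = 5.98e-06). It was 2.99-fold higher than in 2W-PSCs (log2 fold change 1.58, SE 0.33, 95% interval 0.86 to 2.29, adjusted p = 0.0118), and in the 15 alternative settings tried the adjusted p was at most 0.0477. Without the library that stood apart the log2 fold change was 1.31 (adjusted p = 0.000152). Between 2W-PSCs and mono-PSCs it was 0.27 (95% interval -0.52 to 1.06, adjusted p = 0.999), and 0.52 without that library (adjusted p = 0.576). Macrophages also express *Cd44*, and the macrophage markers were highest in the 3W-PSCs. Their sum in the 3W-PSCs was 16.1 to 68.2 CPM over the 12 markers, with *Adgre1* at 0. The part of MØ RNA in the differences of *Cd44* and *Ptx3* was not tested.

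*Tnfaip6* (chr2:52038009-52056686, plus strand) encodes TSG-6, which moves the heavy chains of inter-α-inhibitor onto hyaluronan. It had 15, 4, 26 and 12 counts in mono-PSCs, 11, 0, 27 and 0 counts in 2W-PSCs and 27, 23, 29 and 25 counts in 3W-PSCs. The 3W-PSC libraries were close together at 2.66 to 3.69 CPM, whereas 2W-PSCs ran from 0 to 4.30 CPM and mono-PSCs from 0.783 to 4.62 CPM, and the cultures overlapped. The log2 fold change was 1.11 for 3W-PSCs against 2W-PSCs (95% interval -0.80 to 3.01, adjusted p = 0.457) and 0.47 for 3W-PSCs against mono-PSCs (95% interval -0.57 to 1.52, adjusted p = 0.515). Without the library that stood apart, which was 1 of the 2 at 0, the former value was 0.75 (adjusted p = 0.499). The gene was filtered out of the comparison of 2W-PSCs with mono-PSCs.

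**Figure D3:**
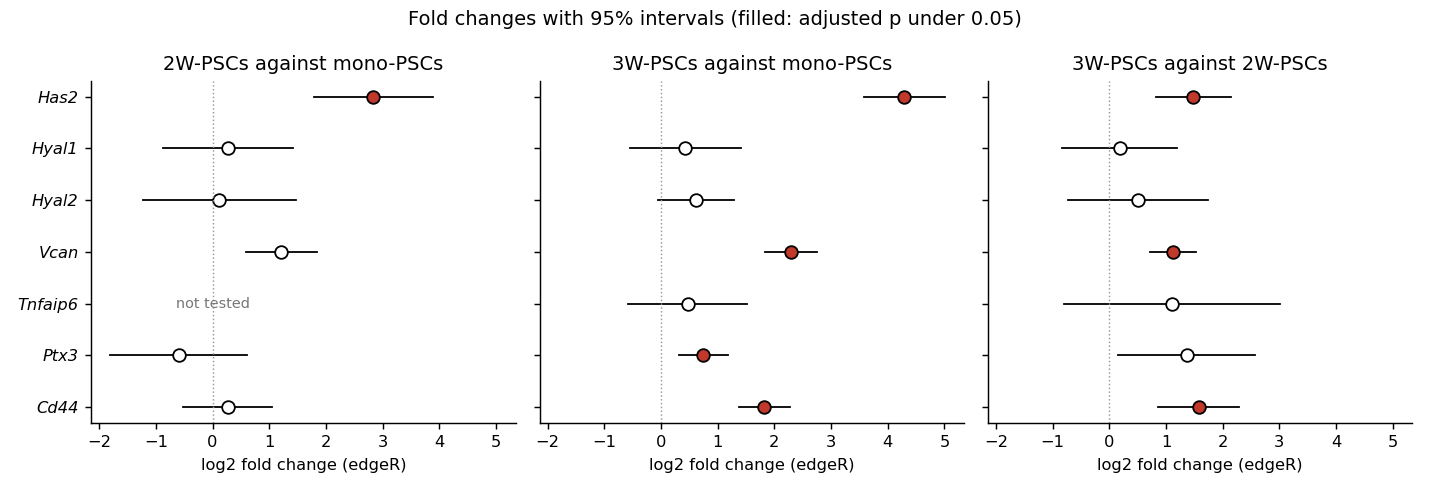
Log2 fold changes (horizontal axes) of the 7 members that passed the filter on low counts in at least 1 comparison, with 95% intervals from edgeR. Filled points have an adjusted p under 0.05. *Has2* is filled in all 3 comparisons, *Vcan* and *Cd44* in both that involve 3W-PSCs, and *Ptx3* only in 3W-PSCs against mono-PSCs, while every interval of *Hyal1* and *Hyal2* includes 0.

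Over the 10 members, 7 were tested for 3W-PSCs against 2W-PSCs, and 3 were higher and 0 lower. Of all 11513 genes tested there, 5.73% were called higher and 4.95% lower. For 3W-PSCs against mono-PSCs 7 members were tested, and 4 were higher and 0 lower, where 13.4% of 11551 genes were called higher and 13% lower. For 2W-PSCs against mono-PSCs 6 members were tested, and 1 was higher and 0 lower, where 0.839% of 11199 genes were called higher and 0.152% lower. Among tested genes, the libraries did not overlap for 4 members above in 3W-PSCs against 2W-PSCs (11.5% of all genes above, 9.87% below), 4 above in 3W-PSCs against mono-PSCs (13.7% above, 12.2% below) and 2 above in 2W-PSCs against mono-PSCs (3.29% above, 2.45% below). *Has1*, which was not tested, also lay above in 3W-PSCs against 2W-PSCs, at 1 to 4 counts against 0. In none of these comparisons did a tested member have all libraries below those of the other culture. The median log2 fold change of the tested members was 1.12, 0.75 and 0.27, respectively, and that of all genes tested was 0.0025, 0.012 and 0.020. *Has2*, at 4 to 14 counts in the mono-PSC libraries, passed the filter in both comparisons with mono-PSCs only through the cocultures. It could thus be called only higher there, which limits the comparison with the shares of all genes. The comparisons share libraries, so their values for a member are not independent.

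The stretch upstream of the transcription start was examined for the members whose RNA differed. RefSeq promoter sequences on GRCm38.p6 were at hand for 8 of the 10 members, not for *Has2* and *Has3*. The 250 bases before the start are shown for *Vcan* (chr13:89742513-89742762, minus strand), *Cd44* (chr2:102901666-102901915, minus strand) and *Ptx3* (chr3:66219637-66219886, plus strand), 5′ to 3′, because these are the called members with a sequence. No base is in capitals because none of the motifs searched for was found.
Vcan: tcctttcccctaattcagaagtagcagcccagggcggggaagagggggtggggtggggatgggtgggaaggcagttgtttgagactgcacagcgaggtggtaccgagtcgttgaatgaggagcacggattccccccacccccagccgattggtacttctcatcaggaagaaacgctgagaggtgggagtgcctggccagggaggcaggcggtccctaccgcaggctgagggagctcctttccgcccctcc
Cd44: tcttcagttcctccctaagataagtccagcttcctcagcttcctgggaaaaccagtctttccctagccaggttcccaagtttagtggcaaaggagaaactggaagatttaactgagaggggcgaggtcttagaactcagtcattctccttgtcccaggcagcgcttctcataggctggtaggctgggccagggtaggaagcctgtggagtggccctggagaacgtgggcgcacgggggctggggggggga
Ptx3: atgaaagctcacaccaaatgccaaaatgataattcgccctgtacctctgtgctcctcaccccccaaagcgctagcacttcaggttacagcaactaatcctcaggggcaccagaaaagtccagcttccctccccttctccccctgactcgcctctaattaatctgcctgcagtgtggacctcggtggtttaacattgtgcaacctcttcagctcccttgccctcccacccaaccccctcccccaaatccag

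On both strands these 3 stretches held no match to the STAT palindrome TTCNNNGAA, the AP-1 site TGANTCA, the TATA box TATAAA or the NF-κB consensus. In the same 250 bases, a STAT match was present in 7.02% of 32851 promoters, an AP-1 match in 6.75%, a TATA box in 12.4% and an NF-κB match in 7.25%. *Tnfaip6*, which was not called, held a STAT match TTCTGAGAA whose first base lies at position -209 from its start and an AP-1 match TGAGTCA at position -142. *Cemip* held TATAAA at position -29, *Hyal2* an NF-κB match at position -238, and *Hyal1* and *Has1* held none. Positions count from the RefSeq start, which can differ from the GENCODE start. The *Hyal2* stretch lies wholly within the gene as annotated by GENCODE, with 180 of its 250 bases in exons of *Hyal2*. Of the *Tnfaip6* stretch, 104 bases lie in annotated exons of *Tnfaip6*. The G and C content of the stretches was 62.4% for *Vcan*, 56.4% for *Cd44* and 54% for *Ptx3*. No match says only that these letters do not occur in this window.

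Around these members, 44 further genes of hyaluronan metabolism and binding were followed, and 15 of them were called in at least 1 comparison. For 3W-PSCs against mono-PSCs 25 of the 44 were tested, 11 were higher and 4 lower, against 13.4% and 13% of all genes, with a median log2 fold change of 0.29. For 3W-PSCs against 2W-PSCs 25 were tested, 2 were higher and 1 lower, against 5.73% and 4.95% of all genes, with a median of 0.27. For 2W-PSCs against mono-PSCs 24 were tested, 2 were higher and 0 lower, against 0.839% and 0.152% of all genes, with a median of 0.083. Among the genes called higher, *Acan* had 0 counts in mono-PSCs, and *Stab1* had 2 counts in mono-PSCs and 2 in 2W-PSCs. These 2 genes passed the filter only through the cultures where they are high. They could thus be called only higher, which limits the comparison with the shares of all genes. The medians were the same with *Acan* set to its lower bound.

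Of the 7 genes that supply the UDP-sugars, 3 were higher and 1 lower in 3W-PSCs than mono-PSCs, and none was called in the other comparisons. *Gfpt2*, which encodes a form of the rate-limiting enzyme of the hexosamine pathway, had 3.51, 9.01, 5.33 and 4.96 CPM in mono-PSCs and 19.7, 17.9, 14.4 and 10.8 CPM in 3W-PSCs, without overlap (log2 fold change 1.46, adjusted p = 0.00179). *Ugdh*, which encodes the enzyme that makes UDP-glucuronic acid, was 1.74-fold higher (adjusted p = 0.00256), and *Uap1*, for the last step to UDP-*N*-acetylglucosamine, was 1.67-fold higher (adjusted p = 0.0266). *Ugp2*, for the enzyme that makes UDP-glucose, fell by 0.68 on the log2 scale (adjusted p = 0.00369). The libraries of *Uap1* overlapped, at 42.2 CPM in 3W-PSC replicate 1 against 43.9 CPM in mono-PSC replicate 1. Genes for the supply of each of the UDP-sugars were thus among those that rose, while *Ugp2* fell and the other 3 genes were not called. For *Uap1* and *Ugdh* the lowest of the 12 values, 7.60 and 37.8 CPM, was in the 2W-PSC library that stood apart.

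In the group of other hyaluronidases and enzymes of oligosaccharide breakdown, 4 of 8 genes were tested. *Cemip2*, the transmembrane relative of *Cemip* that is listed in the table as *Tmem2*, had 62.8, 41.5, 46.3 and 69.7 CPM in mono-PSCs, 78.1, 57.9, 61.1 and 70.8 CPM in 2W-PSCs, against 109, 125.5, 70.5 and 96.7 CPM in 3W-PSCs. The lowest 3W-PSC library lay just above the highest mono-PSC library and within the 2W-PSC range. It was 1.81-fold higher in 3W-PSCs than mono-PSCs (adjusted p = 0.00420) and was not called against 2W-PSCs (log2 fold change 0.59, adjusted p = 0.0850). *Hexa*, which encodes a subunit of a lysosomal hexosaminidase, fell by 0.78 on the log2 scale in 3W-PSCs against mono-PSCs (adjusted p = 0.000930).

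Of 7 other receptors, 5 were tested for 3W-PSCs, and *Tlr2* and *Stab1* were higher in 3W-PSCs than in both other cultures. *Tlr2*, a Toll-like receptor that also responds to hyaluronan fragments, had 5.27, 4.31, 3.73 and 2.18 CPM in mono-PSCs, 1.41, 2.94, 3.66 and 3.37 CPM in 2W-PSCs, against 22.4, 24.98, 25.8 and 19.7 CPM in 3W-PSCs. Its log2 fold change was 3.04 against 2W-PSCs (adjusted p = 0.000181) and 2.60 against mono-PSCs (adjusted p = 2.24e-06). *Stab1*, a scavenger receptor of macrophages and sinusoidal endothelium, had 2 counts in all mono-PSC libraries, 2 in all 2W-PSC libraries and 210 in 3W-PSCs. No mono-PSC library held more than 2 of these counts and no 2W-PSC library more than 1, under the limit of 3 counts. The ratio of its level to that in 2W-PSCs was 78.4, with an interval of 21.4 to 652 for counting error only (edgeR adjusted p = 0.000414), and its size is uncertain. The summed level of the macrophage markers, 16.1 to 68.2 CPM in 3W-PSCs, was also highest in that culture, and its part in the values of *Tlr2* and *Stab1* was not tested. By library, *Stab1* was 6.38, 9.14, 4.96 and 5.72 CPM in 3W-PSCs.

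Of 7 other hyalectans and link proteins, 2 were tested. *Acan*, which encodes the cartilage proteoglycan aggrecan, had 0 counts in every mono-PSC library, 1.97, 3.19, 5.73 and 3.21 CPM in 2W-PSCs, against 5.05, 2.31, 4.07 and 5.85 CPM in 3W-PSCs. Against 3 counts per mono-PSC library it was at least 7.02-fold higher in 2W-PSCs (adjusted p = 0.0115) and in 3W-PSCs at least 8.60-fold higher (adjusted p = 4.99e-05), and the libraries of both cocultures overlapped (adjusted p = 0.722 between them). The summed level of the epithelial markers was also higher in both cocultures, at 52.8 to 146 CPM against 1.33 to 3.34 CPM in mono-PSCs, and its part in the *Acan* values was not tested. The 6 inter-α-inhibitor chains, whose proteins are made mainly by the liver and reach tissues with the blood, were all below the filter.

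Of the 6 proteases of the ADAMTS family that cleave versican, 4 were tested, and all 4 were called in 3W-PSCs against mono-PSCs, 2 in each direction. *Adamts1* fell from 732, 513, 631 and 791 CPM in mono-PSCs to 90.1, 65.2, 143 and 114 CPM in 3W-PSCs, with 384, 179, 490.2 and 405 CPM in 2W-PSCs between them. Its log2 fold change was -2.70 against mono-PSCs (adjusted p = 1.04e-07) and -1.82 against 2W-PSCs (adjusted p = 0.00517), and no 3W-PSC library overlapped with another culture. *Adamts5* fell by 1.39 on the log2 scale in 3W-PSCs against mono-PSCs (adjusted p = 0.000242), whereas *Adamts4* was 2.63-fold higher (adjusted p = 0.000691) and *Adamts9* 2.37-fold higher (adjusted p = 0.0102). In level, *Adamts1* and *Adamts5* lay above *Adamts4* and *Adamts9* in all 12 libraries, so the more abundant proteases fell and the scarcer ones rose.

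Of the 3 ERM proteins that tie CD44 to the actin cytoskeleton, *Ezr* (ezrin) was higher in 2W-PSCs than mono-PSCs, at 55.6, 92.7, 55.6 and 82.0 CPM against 24.8, 34.5, 32.3 and 37.3 CPM (log2 fold change 1.16, adjusted p = 0.0356). In 3W-PSCs, at 49.8 to 58.8 CPM, it was also higher than mono-PSCs (log2 fold change 0.73, adjusted p = 0.00405). *Msn* (moesin) was 2.04-fold higher in 3W-PSCs than mono-PSCs (adjusted p = 0.000200). Against 2W-PSCs it was not called (log2 fold change 0.27, adjusted p = 0.668). There the library that stood apart had 1069 CPM, and the highest 3W-PSC library had 788 CPM. *Rdx* (radixin) was not called. Epithelial cells also express *Ezr*, and the epithelial marker sum was 74.99 to 146 CPM in 2W-PSCs and 52.8 to 90.4 CPM in 3W-PSCs. The part of PCC RNA in the *Ezr* values was not tested, nor was that of MØ RNA in the *Msn* values.

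**Figure D4:**
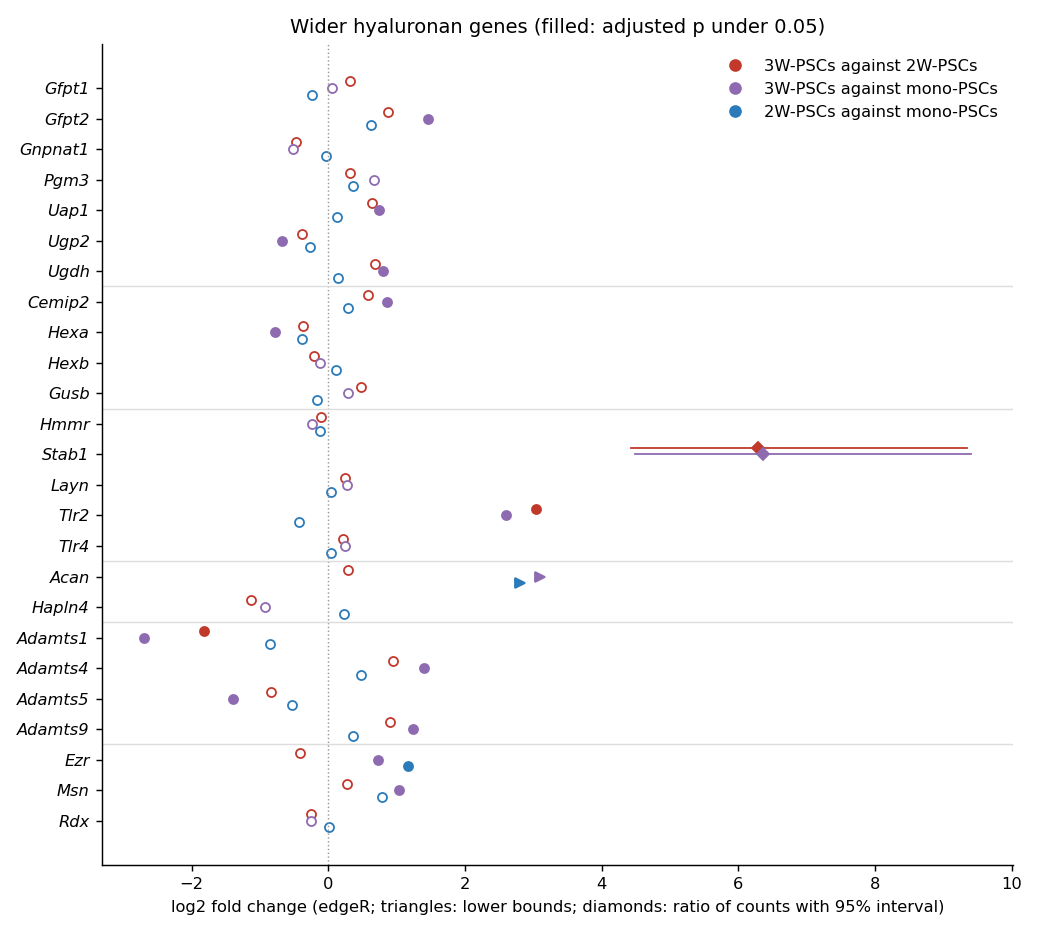
Log2 fold changes (horizontal axis) of the genes of the wider hyaluronan list that were tested for 3W-PSCs against mono-PSCs, in the 3 comparisons (colours), with lines between gene groups. Filled symbols have an adjusted p under 0.05, triangles are lower bounds against 3 counts per library, and diamonds are ratios of counts with their 95% counting interval. *Stab1*, *Tlr2* and *Adamts1* are the filled genes in 3W-PSCs against 2W-PSCs.

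The genes whose levels followed the members most closely were sought over the 12 libraries, for the 3 members with a mean log2 CPM above 3, among 11712 genes. The genes most like *Vcan* were *Ggta1* (Pearson's r = 0.973), *Ltbp1* (r = 0.971) and *Ifi204* (r = 0.960). Among those most like *Ptx3* were *Tulp3* (r = 0.990) and *Sqrdl* (r = 0.985), and those most like *Cd44* were *Zfp36l1* (r = 0.991), *Helz2* (r = 0.987) and *G3bp2* (r = 0.978). None of these genes is in the hyaluronan lists. Between the members, r was 0.739 for *Vcan* and *Cd44*, 0.787 for *Ptx3* and *Cd44* and 0.217 for *Vcan* and *Ptx3*. The 12 points share 3 cultures and include the library that stood apart, so these values are descriptions.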

How the data were processed

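PSC RNA of 12 libraries, 4 per culture, was sequenced by the authors with the QuantSeq 3′ FWD kit in single 75-base reads. By the study's methods, reads were trimmed, aligned to GRCm38 with STAR and assigned to Ensembl genes with featureCounts. Use of molecular identifiers and of strand is not given in the sources used here, so PCR copies count as reads and intervals on counts cover counting error only. The deposited values are raw whole-number counts per gene, although the methods speak of normalised counts. Of 39179 genes, 20802 had no count in any library.

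Levels are CPM scaled by TMM over all 12 libraries. Cultures were compared in pairs, 8 libraries per fit, with edgeR 4.0.16 (R 4.3.3): filterByExpr, glmQLFit, glmQLFTest and Benjamini-Hochberg adjustment over all genes tested, with calls at an adjusted p under 0.05. SE and 95% intervals were derived from the same fit, which was tested on simulated data. Fold changes carry edgeR's prior count of 0.125. The members and the gene lists were chosen with earlier results of these data known. All 10 members are described in every comparison, of the wider hyaluronan genes those called in any comparison are named and the others counted (*Rdx* is named beside its relatives). Also named are the 3 genes most correlated with each member of mean log2 CPM above 3, of which 1 is not reported here. Positions and overlaps come from GENCODE M21 on GRCm38, promoters from RefSeq on GRCm38.p6.

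Samples with the same replicate number deviated together in the comparison of 2W-PSCs with mono-PSCs (correlations of deviations from the culture means 0.371, 0.296, 0.237 and 0.109 for replicates 1 to 4). The highest correlations with another number were -0.031, 0.183, 0.225 and 0.057, so the margin was narrow for replicate 3. The pairing was read from these correlations and the numbers in the labels. Alternatives were DESeq2 1.42.0, other size factors, no filter, at least 10 counts per library, 1 fit of all libraries, a replicate block, a prior count of 2, the study's added limit of an absolute log2 fold change above 1, leaving out the most abundant gene, and leaving out each library. Levels were also computed on raw totals.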

Additional observations from a re-analysis of the deposited data

Results flagged for a closer look

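Of 28 sets of 4 libraries of 1 member in 1 culture, 6 were flagged by Dixon's limit. In these the gap of a library to its nearest neighbour took up more of the range than the limit allows. Chance flags about 1 set in 20 for continuous values, a rate that does not hold for sets mostly at 0. Of the flagged sets, 5 were single libraries with up to 8 counts while the other 3 of the culture were at 0. Any count in 1 library flags such a set. They were *Has1* in mono-PSC replicate 1 (0.176 CPM), *Has3* in 2W-PSC replicate 3 (0.318 CPM) and 3W-PSC replicate 3 (0.127 CPM), and *Cemip* in mono-PSC replicate 4 (0.968 CPM) and 2W-PSC replicate 3 (0.159 CPM). The other was *Vcan* in mono-PSC replicate 2, at 7.05 CPM against 14.7 to 15.8 CPM in the other mono-PSC libraries.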

How the results depend on the processing

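Over the alternatives, 296 fold-change values of members kept their direction and side of the threshold, 8 turned sign, 3 became called and 4 lost their call, and all 150 mean levels stayed within 1 SD. The genes called for 3W-PSCs against 2W-PSCs numbered 1230, and 752 with a replicate block, 672 with the added fold limit and 497 to 2107 with 1 library left out, fewest without replicate 2 of the 3W-PSCs and most without replicate 2 of the 2W-PSCs. For 3W-PSCs against mono-PSCs they numbered 3054, and 1380 with the fold limit. For 2W-PSCs against mono-PSCs they numbered 111, and 177 with no filter, 57 with a minimum of 10 counts in every library, 262 with all 12 libraries in 1 fit, 275 with DESeq2 and 61 to 233 with 1 library left out, fewest without replicate 4 of the mono-PSCs or of the 2W-PSCs and most without replicate 2 of the 2W-PSCs. The members called there numbered 1, and 0 with the minimum of 10 counts, which removes *Has2*, 2 with all 12 libraries, 2 with DESeq2 and 0 to 1 with 1 library left out. The cause of the other shifts was not tested.

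Fold changes that turned sign were small and not called. With 1 library left out, the log2 fold change ranged from -0.079 to 0.54 for *Hyal1* in 3W-PSCs against 2W-PSCs, and in 2W-PSCs against mono-PSCs from -0.082 to 0.48 for *Hyal1*, from -0.17 to 0.48 for *Hyal2* and from -0.0079 to 0.52 for *Cd44*. With the replicate block *Hyal2* was at -0.093 in 2W-PSCs against mono-PSCs. In that comparison the block called 135 genes, and *Has2* kept its call (log2 fold change 2.82, adjusted p = 0.0241). In the comparisons with 3W-PSCs the correlations of same-numbered libraries were -0.048 to 0.156 against 2W-PSCs and 0.008 to 0.127 against mono-PSCs. They exceeded the highest value with another number for replicates 3 and 4 but not 1 and 2. For replicate 4 the values were 0.156 against 0.113 and 0.127 against 0.053. Whether these samples are paired is thus not settled, and the block changed no call of a member. *Has1*, *Has3* and *Cemip*, at up to 8 counts per library, lie at the limit of this depth.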
